A study of Homo sapiens with 12 samples.

Results

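Plasminogen activation and the control of tissue factor were followed through 9 genes in A549 cells, a human lung adenocarcinoma line: F3, TFPI, TFPI2, PLAU, PLAUR, PLAT, SERPINE2, THBD and PROS1. They were chosen by name, with earlier results of these data known, and matched to their Ensembl identifiers. Of the 60617 genes in the tables, these 9 are described here. Each symbol matched exactly 1 gene, and all 9 had enough reads to be tested in both experiments.

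RNA was sequenced from 12 libraries, all of A549 cells grown in the same medium. In the knockdown experiment, 3 shBTLA libraries came from cells carrying a short hairpin RNA against BTLA, an inhibitory immune receptor that the study examined on tumor cells, and 3 shControl libraries came from cells of the knockdown control. In the sort, A549 cells were separated with a labeled antibody to BTLA into 3 BTLAlow and 3 BTLAhigh libraries, and the sorted cells were cultured before their RNA was taken. The 12 libraries fall into 4 groups of n = 3, and neither experiment shares a library with the other. The labels do not say which hairpin was used or whether the replicates of a group came from separate cultures, so the p-values measure only the spread between these libraries.

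Tissue factor, the product of F3, is the cell-surface receptor that starts coagulation by binding factor VII. Tissue factor pathway inhibitor, TFPI, blocks the complex they form together with activated factor X. Thrombomodulin, THBD, and protein S, PROS1, belong to the protein C pathway, which slows coagulation further down. On the fibrinolytic side, the activators urokinase, PLAU, and tissue-type plasminogen activator, PLAT, cut plasminogen into plasmin, urokinase does so bound to its receptor PLAUR, and the serpin protease nexin-1, SERPINE2, inhibits urokinase, tissue-type activator, plasmin and thrombin. Tumor cells use urokinase and its receptor to break down matrix around them, and many carcinoma cells carry tissue factor.

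The promoters of an inhibitor with its target and of a ligand with its receptor are shown first, since in each of these couples the first gene was called in at least 1 experiment and the second in none. Each window holds the 250 bases before and the 50 bases after a RefSeq transcription start on GRCh38.p14, read 5′ to 3′ on the gene's strand. Capitals mark the AP-1 motif TGANTCA and the GC box GGGCGG on either strand. The third motif searched was TATAAA, and no match overlapped another in the windows of these genes.
TFPI, chr2:187554386-187554685, minus strand: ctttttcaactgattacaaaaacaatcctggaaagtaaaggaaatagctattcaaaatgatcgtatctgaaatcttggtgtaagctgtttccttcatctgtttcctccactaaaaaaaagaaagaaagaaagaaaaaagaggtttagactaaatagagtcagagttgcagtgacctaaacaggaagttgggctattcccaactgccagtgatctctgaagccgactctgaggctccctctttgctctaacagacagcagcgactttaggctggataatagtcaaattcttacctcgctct
F3, chr1:94541710-94542009, minus strand: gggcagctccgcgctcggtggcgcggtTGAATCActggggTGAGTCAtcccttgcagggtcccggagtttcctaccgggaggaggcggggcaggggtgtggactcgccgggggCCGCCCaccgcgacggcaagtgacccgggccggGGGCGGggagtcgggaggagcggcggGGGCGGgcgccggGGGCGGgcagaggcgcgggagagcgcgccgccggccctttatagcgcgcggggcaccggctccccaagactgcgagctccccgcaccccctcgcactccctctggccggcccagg
PLAU, chr10:73910882-73911181, plus strand: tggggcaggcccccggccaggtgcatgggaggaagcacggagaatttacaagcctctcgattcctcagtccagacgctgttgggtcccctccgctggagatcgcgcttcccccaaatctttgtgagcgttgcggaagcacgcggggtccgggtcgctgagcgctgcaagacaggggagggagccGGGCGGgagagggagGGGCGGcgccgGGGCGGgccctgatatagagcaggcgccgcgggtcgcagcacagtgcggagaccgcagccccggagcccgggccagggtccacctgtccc
PLAUR, chr19:43670120-43670419, minus strand: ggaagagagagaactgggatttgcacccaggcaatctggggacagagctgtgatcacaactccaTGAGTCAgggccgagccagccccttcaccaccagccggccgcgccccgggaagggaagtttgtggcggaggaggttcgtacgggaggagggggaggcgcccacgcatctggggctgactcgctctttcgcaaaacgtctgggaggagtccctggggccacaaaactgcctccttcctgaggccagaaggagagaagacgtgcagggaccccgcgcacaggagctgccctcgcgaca
The TFPI window has a GC content of 39.3% and none of the 3 motifs. The F3 window has a GC content of 77.3%, with 2 AP-1 motifs at 223 and 210 bases before the start, 4 GC boxes and 1 TATAAA motif, read on the opposite strand. The PLAU window shown, from the later of its 2 annotated starts, has 3 GC boxes, and the PLAUR window has 1 AP-1 motif 186 bases before the start. Windows were found for 7 of the 9 genes, and 3 of these 7 (F3, TFPI2 and PLAUR) held an AP-1 motif, which 7.71% of all 35116 windows of that length also held. A GC box was in 45% of all windows and in at least 1 window of F3, TFPI2, PLAU, SERPINE2 and PROS1, while the other PLAU window held 0. TATAAA was in 11.5% of all windows and in that of F3. A gene was counted if any of its windows held the motif, while the percentages are shares of single windows. These matches describe letters only, and no binding was measured.

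The values below are reads per 1000000 assigned reads (RPM) in each library, recovered from the deposited RPKM as whole reads per gene and divided by the library's total, which ran from 29130357 to 42488067. They compare a gene between libraries and say nothing of the level of one gene against another. Differences are log2 fold changes of RPM + 0.1 from limma, and a gene was called where its p adjusted by Benjamini-Hochberg over all genes tested was under 0.05. BTLA had 2 reads in shControl replicate 3, 2 reads in BTLAhigh replicate 3 and 0 reads in the other libraries, below the 3 reads that a count of 0 allows, so the knockdown and the sort could not be checked on its RNA at this depth. shControl replicate 1 stood apart from the other knockdown libraries, at -63.5 on a first principal component on which the other 5 lay between -11.5 and 36, and 6.26% of its reads were of ribosomal protein genes against 8.52% to 10.6% in the others. In the sort, mitochondrial genes took 6.76% to 7.24% of reads in BTLAlow and 5.25% to 5.79% in BTLAhigh, so that the groups did not overlap in this share, and ribosomal protein genes took 5.76% to 7.35% and 7.17% to 9.37%. Epithelial markers, nearly all KRT8 and KRT18, summed to 12100 to 14700 RPM in shBTLA, 5860 to 9550 in shControl, 17700 to 20900 in BTLAlow and 12000 to 15300 in BTLAhigh. Of the 6 epithelial markers, CLDN4 went the other way and was the only 1 called in the knockdown (-0.99, adjusted p = 0.0164), and in the sort 4 were called higher and CLDN4 lower (-0.55, adjusted p = 0.0116). The lymphocyte markers CD3E, CD3D and MS4A1 and the fibroblast marker DCN were at 0 reads in every library, while CD79A of the lymphocyte list had 7 to 49 reads and LUM of the fibroblast list had 31 to 113. Of the myeloid, alveolar and megakaryocyte lists, ITGAM was called lower in BTLAlow (-1.52, adjusted p = 0.0039), and NKX2-1 (2.10, 8.1e-04), NAPSA (0.80, 0.0322) and ITGA2B (0.77, 0.0107) were called higher, all at means of 4.28 RPM or less, and none of these 4 was called in the knockdown. The endothelial markers PECAM1, KDR, TEK and TIE1 had at most 4 reads in a library, and CDH5 and CLDN5 had at most 20. ESAM, which made up nearly all of the endothelial sum, was lower in shBTLA (15.1 against 24.5 RPM, log2 fold change -0.69, limma adjusted p = 0.0479) and in BTLAlow (18.3 against 38 RPM, -1.05, adjusted p = 1.2e-04). The part of these marker and read-share differences in the results was not tested.

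In the knockdown, TFPI was the only 1 of the 9 genes called, and it was higher in shBTLA, where 0.782% of the 16630 genes tested were called higher. None was called lower, against 0.686% of all genes, and 1, PLAU, was lower at an unadjusted p under 0.05, as were 892 of all 16630 genes. In the sort, 2 genes were called higher in BTLAlow, TFPI and PROS1, where 19.1% of the 16911 genes tested were called higher. The other 2 that were called, PLAU and SERPINE2, were lower, against 6.25% of all genes. The median absolute log2 fold change of the 9 genes was 0.20 in the knockdown, where that of all genes was 0.18, and 0.46 in the sort, where that of all genes was 0.30. The levels of BTLAlow and BTLAhigh did not overlap for 5 of the 9 genes, beside 41.8% of all genes, and those of shBTLA and shControl did not overlap for 3 of the 9, beside 17.9%. The log2 fold change of all genes in the sort had a median of 0.18, and scaling the libraries to the same median lowered it by 0.17, with 2035 genes then called higher and 2298 lower in place of 3238 and 1057.

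**Figure D1:**
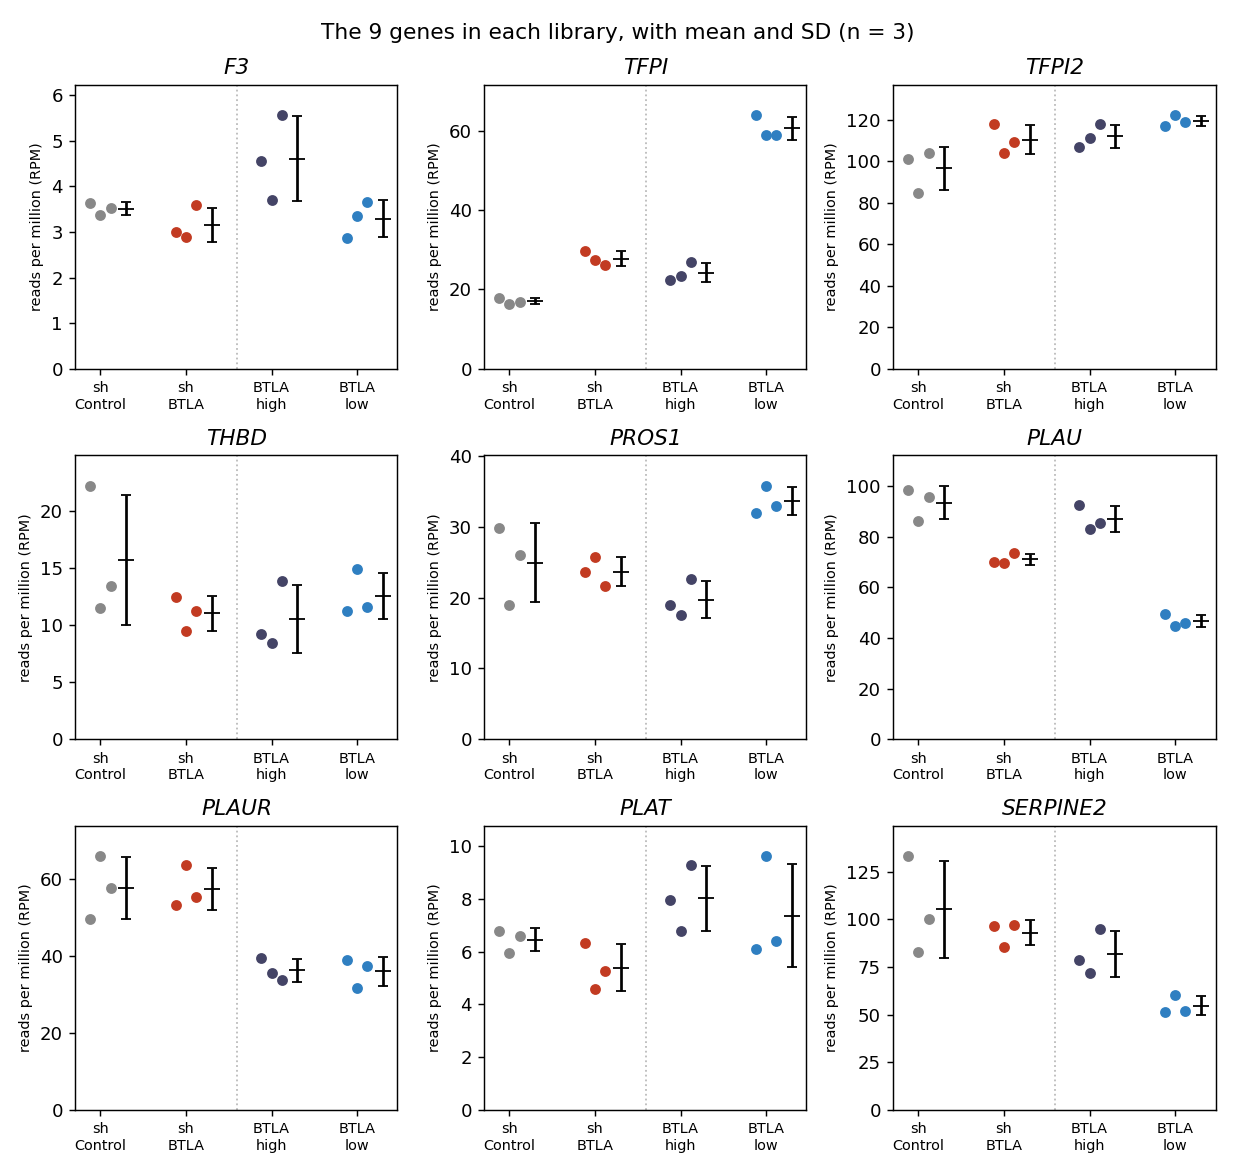
RPM of the 9 genes in each library on linear axes that start at 0, with 1 panel per gene and 1 point per library. Bars give the mean and SD of n = 3, and the dotted line parts the knockdown experiment from the sort. In the sort, the 3 BTLAlow libraries lie above the BTLAhigh libraries for TFPI, at 58.9 to 63.9 RPM, and below them for PLAU, at 44.9 to 49.5 RPM.

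TFPI (ENSG00000003436, GRCh38 chr2:187464230-187565760, minus strand), the inhibitor of the tissue factor and factor VIIa complex, was higher in shBTLA than in shControl and higher in BTLAlow than in BTLAhigh. In RNA from many cells, fewer cells of a kind and less RNA per cell cannot be told apart. In the knockdown it was at 29.7, 27.5 and 26.1 RPM in shBTLA replicates 1 to 3 and at 17.9, 16.3 and 16.9 RPM in the shControl replicates. Every shBTLA library lay above every shControl library. The mean was 27.8 ± 1.8 RPM against 17 ± 0.822 RPM (SD, n = 3), which is 1.63-fold higher, with a log2 fold change of 0.70 ± 0.12 (SE) and a 95% interval from 0.42 to 0.98 (limma, adjusted p = 0.0338). Leaving out any shBTLA replicate or shControl replicate 3 kept the log2 fold change between 0.65 and 0.74 but ended the call, with adjusted p between 0.187 and 0.249, and leaving out shControl replicate 1 gave 0.74 with adjusted p = 0.0085.

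In the sort, TFPI was at 63.9, 59 and 58.9 RPM in the BTLAlow replicates and at 22.3, 23.5 and 26.9 RPM in the BTLAhigh replicates. The gap between the groups was wider than the spread within either. The mean was 60.6 ± 2.86 RPM against 24.2 ± 2.4 RPM (SD, n = 3), 2.5-fold higher, with a log2 fold change of 1.32 ± 0.10 (SE) and a 95% interval from 1.10 to 1.55 (limma, adjusted p = 6.6e-05). TFPI ranked at place 57 of 16911 genes by p. The call held in all 15 alternative settings, with log2 fold changes from 1.14 to 1.40.

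The tables also hold a long noncoding RNA, AC007319.1, on the other strand within the span of TFPI, with 1 to 49 reads per library against the 503 to 2448 reads of TFPI. The sources used here do not say whether strand was used in counting, so reads of these overlapping genes may not be told apart. The TFPI promoter printed above lies inside this span, since Ensembl also places the gene's start further upstream.

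F3 (ENSG00000117525, chr1:94529173-94541759, minus strand), tissue factor itself, was not called in either experiment. It was at 3, 2.89 and 3.59 RPM in shBTLA and at 3.64, 3.37 and 3.53 RPM in shControl, from 103 to 150 reads per library. The groups overlapped, and the log2 fold change was -0.15 with a 95% interval from -0.58 to 0.27 (limma, adjusted p = 0.823). In the sort it was at 2.86, 3.35 and 3.66 RPM in BTLAlow and at 4.56, 3.7 and 5.56 RPM in BTLAhigh. The groups did not overlap, though the highest BTLAlow and the lowest BTLAhigh library were close, and the log2 fold change of -0.46 had a 95% interval from -0.90 to -0.02 (limma, adjusted p = 0.113). Scaling the libraries to a common median had it called, at -0.64 (adjusted p = 0.0265).

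TFPI2 (ENSG00000105825, chr7:93885396-93890753, minus strand) encodes a Kunitz-type inhibitor related to TFPI that acts on plasmin and trypsin in the matrix. It was at 118, 104 and 109 RPM in shBTLA and at 101, 84.7 and 104 RPM in shControl. The lowest shBTLA library stood above the highest shControl library by less than the rounding of these values, and the log2 fold change of 0.20 was not called (95% interval -0.07 to 0.47, limma adjusted p = 0.646). In the sort it was at 117, 122 and 119 RPM in BTLAlow and 107, 111 and 118 RPM in BTLAhigh. The groups overlapped, and the log2 fold change was 0.09 with a 95% interval from -0.08 to 0.26 (limma, adjusted p = 0.394), which turned to -0.09 when the libraries were scaled to the same median.

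Of the genes of the protein C pathway, PROS1 was called in the sort and THBD in neither experiment. PROS1 (ENSG00000184500, chr3:93873033-93980003, minus strand), the protein S cofactor of activated protein C and of TFPI, was at 32, 35.8 and 33 RPM in BTLAlow and at 18.9, 17.6 and 22.7 RPM in BTLAhigh. All 3 BTLAlow libraries lay above all 3 BTLAhigh libraries. The mean was 33.6 ± 1.93 RPM against 19.7 ± 2.68 RPM (SD, n = 3). By limma PROS1 was 1.71-fold higher, with a log2 fold change of 0.77 ± 0.12 (SE) and a 95% interval from 0.50 to 1.04 (adjusted p = 0.00189). In the knockdown PROS1 was at 23.7, 25.7 and 21.7 RPM in shBTLA and at 29.9, 18.9 and 26.1 RPM in shControl, the shControl libraries spanning the shBTLA values. The log2 fold change was -0.05 with a 95% interval from -0.47 to 0.36 (limma, adjusted p = 0.937), and it was 0.09 without shControl replicate 1. The pseudogene copy PROS2P had 0 reads in all 12 libraries, and how reads matching several places were counted is not given in the sources used here.

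THBD (ENSG00000178726, chr20:23045633-23049741, minus strand) encodes thrombomodulin, the receptor that turns thrombin towards activating protein C. It was at 12.5, 9.45 and 11.2 RPM in shBTLA and at 22.2, 11.5 and 13.4 RPM in shControl. Its high shControl value came from shControl replicate 1, the library that stood apart. The log2 fold change was -0.45 with a 95% interval from -1.02 to 0.11 (limma, adjusted p = 0.595) and -0.17 without that library (adjusted p = 0.736). In the sort THBD was at 11.2, 14.9 and 11.6 RPM in BTLAlow and 9.21, 8.47 and 13.9 RPM in BTLAhigh. The groups overlapped through BTLAhigh replicate 3, and the log2 fold change of 0.27 (95% interval -0.17 to 0.72, limma adjusted p = 0.331) rose to 0.49 and was called without it (adjusted p = 0.0316).

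PLAU (ENSG00000122861, chr10:73909177-73917496, plus strand), urokinase, was lower in BTLAlow than in BTLAhigh. It was at 49.5, 44.9 and 46.1 RPM in the BTLAlow replicates and at 92.6, 83 and 85.6 RPM in the BTLAhigh replicates. No BTLAlow library came near the lowest BTLAhigh library. The mean was 46.8 ± 2.39 RPM against 87.1 ± 4.95 RPM (SD, n = 3), 1.86-fold lower, with a log2 fold change of -0.89 ± 0.09 (SE) and a 95% interval from -1.09 to -0.70 (limma, adjusted p = 2.0e-04), at place 150 of all genes by p. The call held in all 15 alternative settings.

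In the knockdown PLAU was at 70.1, 69.5 and 73.7 RPM in shBTLA and at 98.7, 86.1 and 95.9 RPM in shControl. The groups did not overlap, with means of 71.1 ± 2.28 RPM and 93.6 ± 6.63 RPM (SD, n = 3). The log2 fold change of -0.39 ± 0.10 (SE) had a 95% interval from -0.63 to -0.16 and was not called (limma, adjusted p = 0.157), while a joint fit of the 12 libraries did call it (adjusted p = 0.0176). The reading frame C10orf55 lies on the other strand within PLAU and had 3 to 24 reads per library, beside 1455 to 3721 reads of PLAU.

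PLAUR (ENSG00000011422, chr19:43646095-43670547, minus strand), the urokinase receptor that holds the protease at the cell surface, was not called in either experiment. It was at 53.1, 63.5 and 55.2 RPM in shBTLA, 49.5, 65.8 and 57.5 RPM in shControl, 38.8, 31.6 and 37.4 RPM in BTLAlow and 39.5, 35.5 and 33.7 RPM in BTLAhigh. The groups overlapped in both experiments. The log2 fold change was -0.00 with a 95% interval from -0.32 to 0.31 in the knockdown and -0.02 with a 95% interval from -0.27 to 0.23 in the sort (limma, adjusted p = 0.996 and 0.929), so that a change the size of that of PLAU in the sort lay outside the interval of its receptor.

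PLAT (ENSG00000104368, chr8:42175233-42207724, minus strand), the tissue-type activator, was the other activator measured and was not called. It was at 6.34, 4.6 and 5.25 RPM in shBTLA and 6.8, 5.96 and 6.6 RPM in shControl, with a log2 fold change of -0.26 (95% interval -0.68 to 0.15, limma adjusted p = 0.686). In the sort it was at 6.09, 9.62 and 6.4 RPM in BTLAlow and 7.97, 6.8 and 9.29 RPM in BTLAhigh, with -0.14 (95% interval -0.59 to 0.31, adjusted p = 0.634). The groups overlapped in both experiments, and BTLAlow replicate 2 held the highest value of the sort.

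SERPINE2 (ENSG00000135919, chr2:223975045-224039318, minus strand), protease nexin-1, was lower in BTLAlow. It was at 51.4, 60.3 and 51.9 RPM in BTLAlow and at 78.7, 71.7 and 95.1 RPM in BTLAhigh. The groups did not overlap, and the BTLAhigh libraries were the more spread. The mean was 54.6 ± 5 RPM against 81.8 ± 12 RPM (SD, n = 3). By limma SERPINE2 was 1.49-fold lower, with a log2 fold change of -0.58 ± 0.12 (SE) and a 95% interval from -0.84 to -0.31 (adjusted p = 0.00767). In the knockdown it was at 96.4, 85.2 and 97.1 RPM in shBTLA and at 133, 83 and 100 RPM in shControl. The shControl libraries lay on both sides of the shBTLA values, and the log2 fold change was -0.16 (95% interval -0.55 to 0.23, limma adjusted p = 0.799), or 0.02 without shControl replicate 1.

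**Figure D2:**
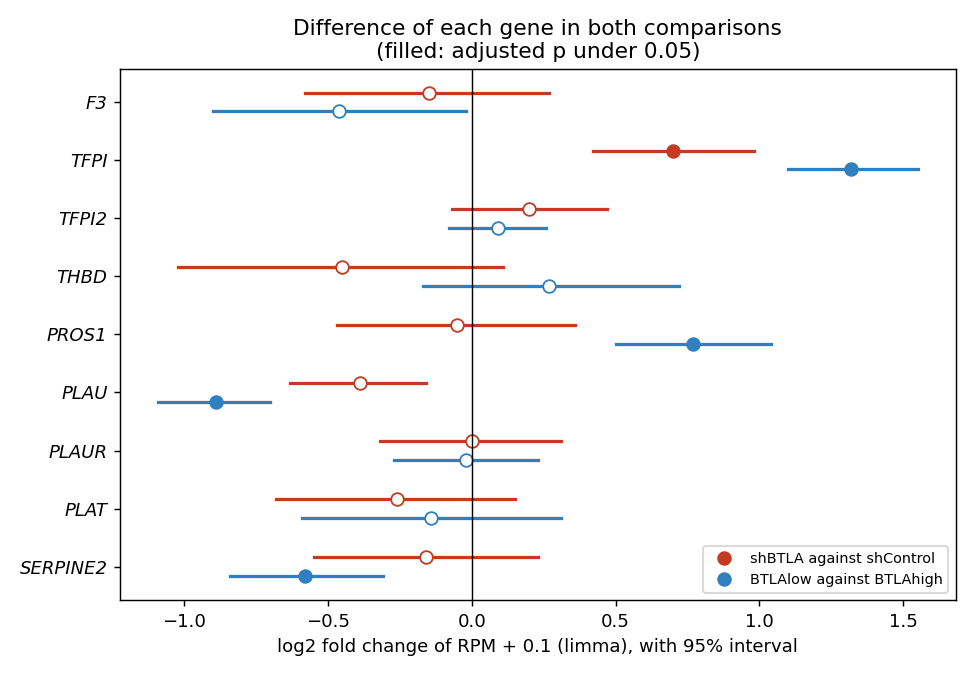
Log2 fold change of each gene with its 95% interval from limma, for shBTLA against shControl and BTLAlow against BTLAhigh, on the horizontal axis. Filled points have an adjusted p under 0.05, which are TFPI in both comparisons and PLAU, SERPINE2 and PROS1 in the sort.

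Whether a gene differed more in the sort than in the knockdown was tested as the difference of the 2 log2 fold changes over all 12 libraries, where 4.83% of the 16160 genes tested in both experiments were called. TFPI and PLAU were called. TFPI rose less in the knockdown, by a difference of -0.62 (95% interval -0.92 to -0.32, limma adjusted p = 0.0272), and PLAU had the smaller fold change there, with a difference of 0.50 (95% interval 0.24 to 0.75, adjusted p = 0.0329). For PROS1, called in the sort alone, the difference was -0.82 with a 95% interval from -1.31 to -0.34 and missed the threshold (adjusted p = 0.056), which it passed in 3 of 18 alternative settings (pseudocount 1, without shControl replicate 2 and without BTLAhigh replicate 3). For SERPINE2 it was 0.42 with a 95% interval from -0.06 to 0.90 (adjusted p = 0.272), and it was called, at 0.63 (adjusted p = 0.0422), once the libraries were scaled to a common median, a setting that ended the call of TFPI (-0.41, adjusted p = 0.081). For THBD, higher in BTLAlow and lower in shBTLA without a call in either, it was -0.73 with a 95% interval from -1.48 to 0.03 (adjusted p = 0.231). Both calls depended on which libraries entered: that of TFPI was lost in 10 of 18 alternative settings and that of PLAU in 11 of 18, among them leaving out shBTLA replicate 2 or 3, shControl replicate 3, any BTLAlow replicate, or BTLAhigh replicate 1 or 2.

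**Figure D3:**
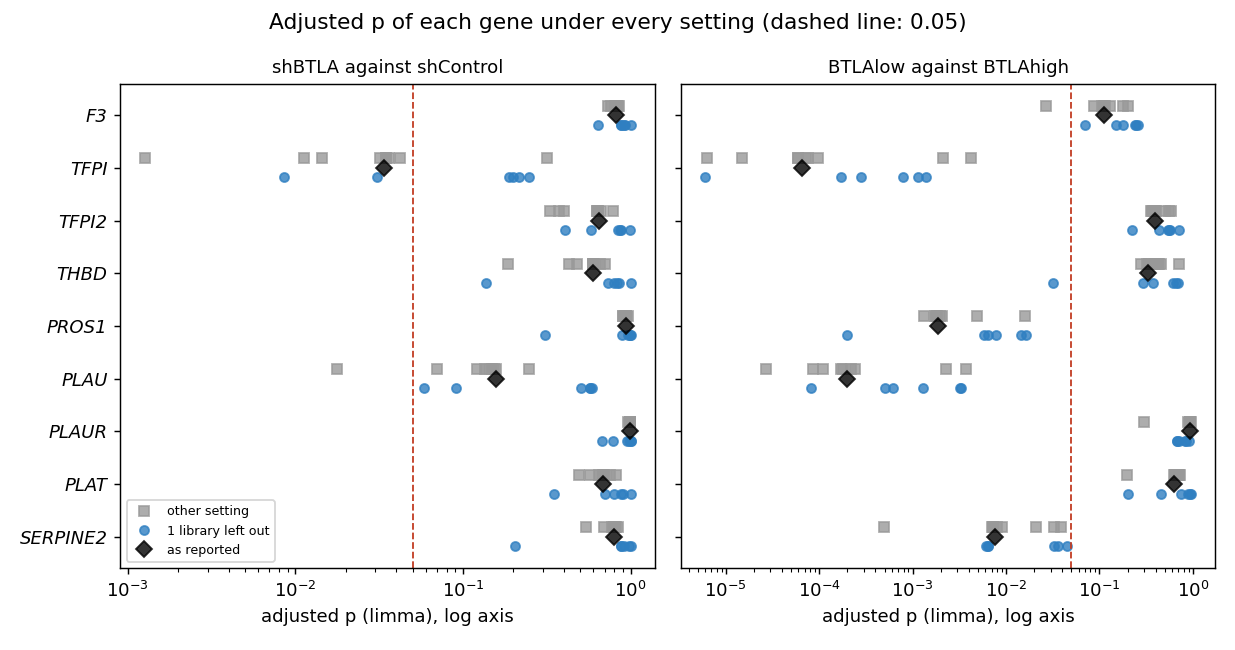
Adjusted p of each gene on a log axis in both comparisons, as reported (diamonds), with 1 library left out (circles) and under the other settings (squares). The dashed line marks 0.05, and in the sort every setting of TFPI, PLAU, PROS1 and SERPINE2 lies to its left, while in the knockdown TFPI crosses it in 5 of 15 settings.

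Levels of the 9 genes over the 12 libraries were compared in pairs after centering each experiment on its own mean, so that these r values also carry the group differences given above. Only some of the pairs are given. TFPI and PLAU ran opposite to each other, with Pearson r = -0.97 over 12 libraries, and TFPI and PROS1 ran together, with r = 0.76. PLAU and SERPINE2, the activator and a serpin that inhibits it, had r = 0.80. F3 followed SERPINE2 (r = 0.81) and PLAU (r = 0.75), though it was not called in either experiment. PLAUR and THBD, also not called, had r = -0.73. The library that stood apart, shControl replicate 1, held the highest THBD value (22.2 RPM) and the lowest PLAUR value (49.5 RPM) of the knockdown.

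Of the 16160 genes tested in both experiments, LLGL2 (r = 0.997), CXCL1 (r = 0.995) and PLEKHH2 (r = 0.992) were closest to TFPI over the 12 centered libraries, and 439 genes had r above 0.9 with it. The closest to PLAU were MARCHF4, DAW1 and MAP3K14, with r = 0.989, 0.988 and 0.987, and 208 genes lay above 0.9. For SERPINE2 they were SPDL1, NAT10 and LRRC59 (0.987, 0.986 and 0.985, with 167 genes above 0.9), and for PROS1 they were KIAA0895L, CLK2 and SLC44A5 (0.981, 0.980 and 0.979, with 411 genes above 0.9). These likenesses describe level patterns only, and any gene that moved with the groups scores high in them.

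Another 42 genes of the plasminogen system, the coagulation factors, the anticoagulants and the thrombin receptors were looked up by name, and the counts cover these genes alone. In the knockdown 24 of them were tested, with 0 called higher and 0 lower, and in the sort 27 were tested, with 13 called higher, 1 lower and 13 not called. Over all genes, 0.782% were called higher and 0.686% lower in the knockdown, and 19.1% higher and 6.25% lower in the sort. The median log2 fold change of these genes was 0.11 in the knockdown, where that of all genes was -0.02, and 0.34 in the sort, where that of all genes was 0.18. In the sort, the 13 called higher became 7 without BTLAlow replicate 3, 8 without BTLAhigh replicate 1, 9 with the replicate block and 6 of 19 tested on the deposited RPKM. Scaling the sort libraries to the same median left 11 higher and 2 lower, beside 2035 higher and 2298 lower over all genes. Before adjustment, limma placed 4 higher and 3 lower in the knockdown, and 13 higher and 2 lower in the sort, with p under 0.05. At that threshold, 898 of all 16630 genes were higher and 892 lower in the knockdown. In the sort, 4868 of all 16911 genes were higher and 1689 lower. With a pseudocount of 1 or 0.5 RPM, or with the replicate block, 1 of the 24 was called higher in the knockdown, and with limma-voom 0 were.

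Among the plasminogen system genes, 3 of 8 tested were called higher in the sort and 1 lower, beside 19.1% and 6.25% of all genes, and 0 of 7 were called in the knockdown. Each of these 4 calls was lost in some of 14 alternative settings. The glycolytic enzyme ENO1, also known as a plasminogen receptor, fell by 0.33 on the log2 scale in the sort (limma, adjusted p = 0.00678), a call lost without a filter on low genes and with the replicate block (adjusted p up to 0.0564). LRP1, SERPINF2 and VTN were called higher, with log2 fold changes of 0.43, 1.09 and 0.88. The call of LRP1 was lost in 3 of the 14 settings (without BTLAlow replicate 3, without BTLAhigh replicate 1 and with the replicate block), that of SERPINF2 in 4 (on the deposited RPKM and without BTLAlow replicate 2, BTLAlow replicate 3 or BTLAhigh replicate 1) and that of VTN in 8, among them the scaling to a common median and leaving out any library but BTLAhigh replicate 3. Plasminogen itself, PLG, had 0 reads in every knockdown library and 0 to 3 in the sort, and the serpin SERPINB2 had 0 reads in all 12.

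Of the coagulation factors, 7 of 12 tested were called higher in the sort and 0 lower, beside 19.1% and 6.25% of all genes. A gene could pass the filter through its reads in BTLAlow alone, and F10 and FGG had as few as 6 reads in a sort library. The count of genes called higher was therefore not independent of the direction of change. Their median log2 fold change there was 1.52, where that of all genes was 0.18. In the knockdown 0 of 10 were called, with a median of 0.21. FGA (2.16, limma adjusted p = 0.0701), F5 (1.08, 0.369) and FGB (0.97, 0.19) were higher in shBTLA, without overlap of the groups. F2 was lower without overlap (-0.52, 0.394), and F8 (-0.40) and F13B (-0.23) were lower with overlap. The shControl means of FGA and F5 were only 0.165 RPM. Whether these genes differed more in the sort than in the knockdown was not tested. The fibrinogen chains FGB (3.31, adjusted p = 1.6e-05), FGA (3.23, 3.0e-04) and FGG (3.59, 3.4e-04), whose protein is what plasmin dissolves in a clot, had the largest log2 fold changes of the lists in the sort. FGB was at 19.4 ± 1.89 RPM in BTLAlow against 1.9 ± 0.422 RPM in BTLAhigh (SD, n = 3). FGA was at 15.9 ± 2.05 against 1.77 ± 0.883 RPM, and FGG at 6.21 ± 0.809 against 0.487 ± 0.326 RPM. The BTLAhigh means of FGG, F5 (0.435 RPM) and F10 (0.256 RPM) were low beside the 0.1 RPM added before the log2. F7, the factor that tissue factor binds, was at 5.7 ± 1.33 RPM in BTLAlow and 1.18 ± 0.334 RPM in BTLAhigh, a log2 fold change of 2.19 (limma, adjusted p = 5.4e-04), while F3 was not called. F5, the cofactor for making thrombin, and F13B, a subunit of the clot-crosslinking factor, followed with 1.51 (adjusted p = 0.00673) and 1.53 (adjusted p = 0.0116), the call of F13B ending without BTLAlow replicate 3 (adjusted p = 0.0549), and F10 was the seventh, at 1.55 (adjusted p = 0.0156), its call lost without BTLAlow replicate 1, BTLAlow replicate 3 or BTLAhigh replicate 1 and with the replicate block (adjusted p up to 0.0757).

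The thrombin receptor F2R and its relative F2RL1, which tissue factor complexes can activate, were called higher in BTLAlow. F2RL1 was at 49.3 ± 8.2 RPM against 25.6 ± 3.13 RPM (SD, n = 3; log2 fold change 0.94, limma adjusted p = 0.00159) and F2R at 31 ± 1.49 RPM against 21 ± 2.19 RPM (0.57, adjusted p = 0.00553). Neither was called in the knockdown, where F2RL1 had a log2 fold change of 0.08 and F2R of -0.24 (adjusted p = 0.911 and 0.613). Of the other anticoagulants, 1 of 4 tested, ANXA5, was called higher in the sort (0.33, limma adjusted p = 0.0188), beside 19.1% of all genes, and 0 of 4 in the knockdown. The ANXA5 call was lost in 7 of 14 settings. Among them were the scaling to a common median (adjusted p = 0.156) and leaving out BTLAlow replicate 2 or 3 or BTLAhigh replicate 1 or 2.

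**Figure D4:**
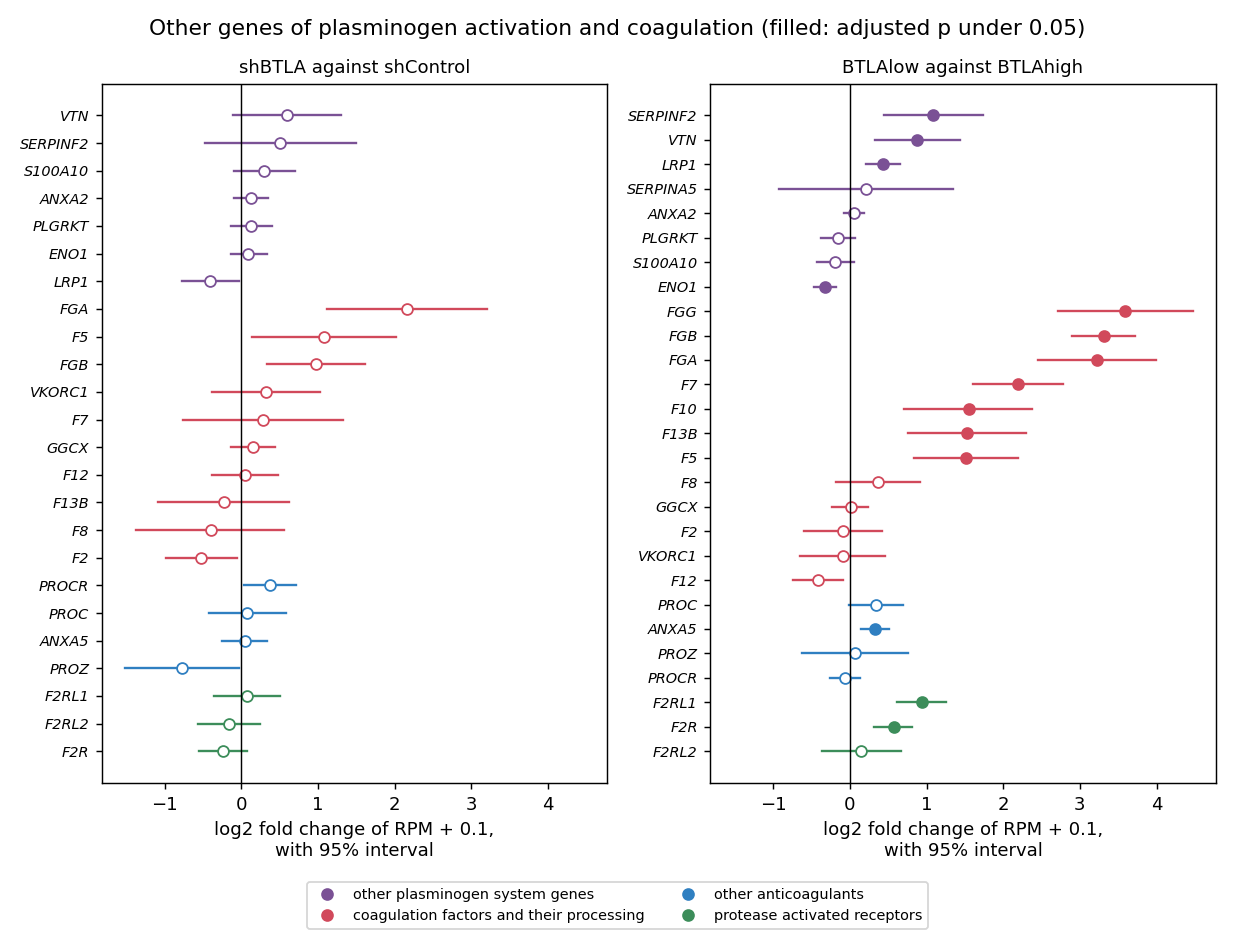
Log2 fold change with its 95% interval for the 24 other genes of plasminogen activation and coagulation tested in the knockdown (left) and the 27 tested in the sort (right), colored by list. Filled points have an adjusted p under 0.05, of which the left panel has 0 and the right panel has 13 above 0 and 1 below.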

How the data were processed

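RNA-seq of 12 A549 libraries was used, grouped by the labels. Per the labels and the study's methods, the authors used Trim Galore 0.6.6 for trimming, STAR for alignment to GRCh38 with Ensembl genes, featureCounts for counting and edgeR for testing, and they deposited RPKM per gene and library. The authors' fold changes, CPM and p-values were deposited in 2 further tables and not used. Whether counting used strand, and how it treated reads with several matches, is not given in the sources used here. These deposited RPKM were divided by the length of another gene, that at the same rank of sorted identifiers. Undoing this gave whole reads within 0.02 read for 100% of values above 0 (5.74% with the gene's own span). For 1056 genes the length was searched, a step that found the reads of 198 of 200 trial genes. The start and end values deposited with each gene (unit: other) are GRCh38.

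A gene was tested if 3 or more of the 6 libraries held at least 10 reads of it, on log2(RPM + 0.1) with limma 3.58.1 (trend, Benjamini-Hochberg) in R 4.3.3, each experiment alone, and in all 12 libraries for the difference. The count test named in the study's methods was not the main test. The files hold RPKM, and the reads used here were recovered from them. Limma-voom on these recovered reads was run as an alternative. The code was tested on simulated data. With 3 against 3 an exact permutation test cannot go below p = 0.1. Intervals cover the spread between libraries, and 3 reads are 0.0706 to 0.103 RPM. Named were all 9 genes, at most 10 called pathway genes per comparison, and the 3 most alike genes of each gene called; CLDN4, ESAM, CD79A, LUM, ITGAM, NKX2-1, NAPSA, ITGA2B, LRP1, SERPINF2, VTN, ANXA5 and F10 were added after their values were seen. Of the pathway lists, 1 gene is not reported here. The genes, lists and motifs were chosen with earlier results of these data known. Alternatives were another scaling, limma-voom, 2 pseudocounts, 2 filters, the deposited RPKM, a joint fit, a replicate block and leaving out each library.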

Additional observations from a re-analysis of the deposited data

Results flagged for a closer look

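TFPI differed between the experiments by a test of the difference itself: its log2 fold change was 0.70 in the knockdown and 1.32 in the sort, a difference of -0.62 (limma, adjusted p = 0.0272). PLAU did so too, with -0.39 in the knockdown, where it was not called, and -0.89 in the sort, a difference of 0.50 (limma, adjusted p = 0.0329). The call of the difference was lost in 10 of 18 alternative settings for TFPI and in 11 of 18 for PLAU. In each case the direction was the same in both experiments, with 3 of 3 shBTLA and 3 of 3 BTLAlow libraries beyond all 3 of their comparison group, and the sort had the larger change. Groups also did not overlap for 17.9% of all genes in the knockdown and 41.8% in the sort. The experiments also differ in how the cells were made, so the treatment and the experiment cannot be told apart here.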

How the results depend on the processing

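No result changed to the opposite direction with a call. Of the 9 genes, 1 was called in the knockdown, 0 on the deposited RPKM as they stand, 2 in the joint fit of 12 libraries (TFPI and PLAU), and 0 to 1 with 1 library left out. Over all genes, the 244 calls of the knockdown became 115 on the deposited RPKM, 697 in the joint fit, 545 with the replicate block and 25 to 484 with 1 library left out. In the sort, 4 of the 9 were called, and 4 to 5 with 1 library left out, while the 4295 calls over all genes became 2528 on the deposited RPKM, 2187 with the replicate block and 1996 to 5985 with 1 library left out. Of the 9 genes, 2 were called for the difference between the experiments, 0 with the replicate block, 1 (TFPI) when genes with few reads were not removed, and 0 to 3 with 1 library left out, the third being PROS1. The cause of these changes was not tested, except that leaving out a library reduces the samples. Same-numbered libraries correlated at 0.218, 0.406 and -0.039 in the knockdown and at 0.0683, -0.373 and -0.165 in the sort. In the knockdown, shBTLA replicates 1 and 2 correlated best with the shControl library of their own number and replicate 3 with another. In the sort every number correlated better with another number. Whether the knockdown libraries were paired is therefore not settled here. With the replicate block, 1 of the 9 genes was called in the knockdown and 4 in the sort, as without it. F3 and PROS1 fell below the filter on the deposited RPKM, which carry the length of another gene, and have no value there. That filter does not follow the number of reads: PROS1 had 582 to 1483 reads per library, and PLAT, which stayed in, had 164 to 399. A gene near 3 RPM, such as F3, rests on 84 to 176 reads per library.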
